A study of Mus musculus with 24 samples.

Results

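The enzymes that build triglyceride from glycerol and fatty acids were examined in the livers of 24 male C57Bl6J mice of the third generation of 2 breeding lineages. The set held 10 genes, chosen by name and not by a threshold on their values, though with earlier results of these data known. They were Gpam, Agpat6, Agpat9, Agpat2, Agpat3, Lpin1, Lpin2, Dgat1, Dgat2 and Mogat1. Every probe was taken whose gene name in the array design was exactly that of a member, which gave 26 of the 56605 probes on the array and 10 of its 37074 gene names. Of these 26 probes 24 were bright enough to be tested, among 30003 tested probes in all, and the other 2, both of Mogat1, were well above background on only 5 and 1 of the 24 arrays.

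The reference group (labelled STD_Cont, 9 mice) came from the control lineage, whose growing diet was supplemented with high-oleic sunflower oil, and was then fed a low-fat diet. The HFoleic group (HFD_Cont, 8 mice) came from the same lineage and received a high-fat, high-sucrose diet. The HFepa group (HFD_O3, 7 mice) came from the n-3PUFA lineage, whose growing diet held fish oil with mainly EPA (eicosapentaenoic acid) as its omega 3 fatty acid, and received that high-fat diet too. All were killed during fasting. There were no mice of the EPA lineage on the low-fat diet, so diet, lineage and oil differed at once between HFepa and the reference, and their parts in that comparison cannot be told apart. RNA of each liver was hybridised to 1 single-colour Agilent array, and values are log2 normalised intensities, which can be compared between mice for a probe but not between probes. Between 28804 and 34432 probes per array were well above background, no spot was saturated, and the 3 slides each held 3 reference mice and 2 or 3 mice of each high-fat group. All 8 hepatocyte markers looked up, albumin and transthyretin among them, were above the detection filter.

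Most liver triglyceride is made by the glycerol phosphate pathway. Glycerol-3-phosphate acyltransferases add the first fatty acid, acylglycerolphosphate acyltransferases add the next to give phosphatidic acid, lipins remove the phosphate to give diacylglycerol, and diacylglycerol acyltransferases add the last fatty acid. Phosphatidic acid and diacylglycerol also feed the synthesis of phospholipids. Despite its name, Agpat6 encodes an acyltransferase of glycerol-3-phosphate in the endoplasmic reticulum and is now named Gpat4. Agpat9 encodes a related enzyme, now Gpat3, while Gpam encodes the enzyme of the mitochondrial outer membrane. The other 8 members were found under their array names in the RefSeq gene table.

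Agpat6 was read by 3 probes placed apart on the minus strand of chromosome 8 (mm9, the build of the array files). The brightest lay at chr8:24284212-24284271. The others covered 60 bases of transcript each but 883 and 328 bases of genome (chr8:24291416-24292298 and chr8:24289932-24290259), so each crossed at least 1 splice junction and reads spliced RNA. The Lpin2 probe of the same kind lay on the plus strand at chr17:71595823-71596189 and spanned 367 bases. These 3 sequences are shown because they are the exon-spanning probes behind 3 of the 4 calls between HFoleic and reference given next.
Agpat6, exon-spanning probe 1: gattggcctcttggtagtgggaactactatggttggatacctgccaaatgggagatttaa
Agpat6, exon-spanning probe 2: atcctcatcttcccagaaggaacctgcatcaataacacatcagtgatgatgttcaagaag
Lpin2, exon-spanning probe: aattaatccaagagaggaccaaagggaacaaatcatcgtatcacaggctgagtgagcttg

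The comparison of HFoleic with reference asks what the obesogenic diet did within the control lineage. Agpat6 mRNA was lower in HFoleic livers at all 3 of its probes, by 0.60 to 0.65 on the log2 scale. The exon-spanning probe of Lpin2 was lower too, and no member probe was higher at an adjusted p under 0.05. The 4 calls were 16.7% of the 24 member probes, against 7.23% of all 30003 tested probes called in either direction, 3.19% lower and 4.05% higher. At an unadjusted p under 0.05 there were 13 of the 24 member probes, beside 6332 of the 30003. The median log2 difference over the member probes was -0.13, with 16 below 0 and 8 above it, beside -0.00072 over all tested probes. Genes with several probes count more than once in these values, and 3 of the 4 calls were of Agpat6. By the brightest probe of each gene, 1 of 10 was called (10%). Of these 10, 6 were below 0 and 4 above it, with a median of -0.07. A fall in a whole-liver level does not tell fewer expressing cells from less RNA per cell.

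Among the glycerol-3-phosphate acyltransferases, the brightest Agpat6 probe read 14.13 in the lowest, 14.44 in the median and 14.71 in the highest of the 9 reference mice, and 13.61, 13.74 and 13.94 in the 8 HFoleic mice. Every HFoleic mouse lay below every reference mouse. The log2 difference was -0.65 ± 0.08 (SE; 95% interval -0.81 to -0.49), or 0.639 times the reference level, with an adjusted p of 0.000171 by limma. By unadjusted p this probe stood at rank 2 of the 30003 tested. By size alone it was less extreme, at rank 272 counted from the largest fall.

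The other Agpat6 probes gave the same picture. Exon-spanning probe 1 read 9.14, 9.47 and 9.89 (lowest, median, highest) in reference and 8.73, 8.85 and 8.94 in HFoleic mice, a difference of -0.63 ± 0.09 (adjusted p = 0.000401). Exon-spanning probe 2 read 8.72, 9.06 and 9.12 against 8.04, 8.38 and 8.57, a difference of -0.60 ± 0.09 (adjusted p = 0.000717). At both, as at the brightest, the groups did not overlap, which held for 0.257% of all tested probes in the downward direction. The 3 probes read RNA of the same gene in the same mice and are not independent of each other. A two-sided exact permutation test of the brightest probe gave p = 8.23e-05, the smallest that 8 against 9 mice allow, and the mean over the 3 probes gave the same. Within the 3 slides the difference was -0.84, -0.57 and -0.51. The study had listed Agpat6 among the genes most changed in HFepa on these arrays, and had also picked it for RT-qPCR in these mice. Its choice here is therefore not independent of these samples or of their array values.

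Gpam, the mitochondrial enzyme of the same step, had a difference of the opposite sign that did not pass the threshold. Its brightest probe read 12.94, 13.28 and 13.70 in reference and 13.30, 13.44 and 13.74 in HFoleic mice, which overlap over most of their range. The difference was 0.19 ± 0.09 (adjusted p = 0.218), and its other probe gave 0.30 (adjusted p = 0.177). Agpat9 read 9.90, 10.50 and 11.98 in reference against 9.63, 10.70 and 11.38, with a difference of -0.01 ± 0.24 and a 95% interval of -0.50 to 0.49 that leaves changes of that size in either direction unresolved. Agpat9 thus had the widest spread of the acyltransferases of this step.

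**Figure D1:**
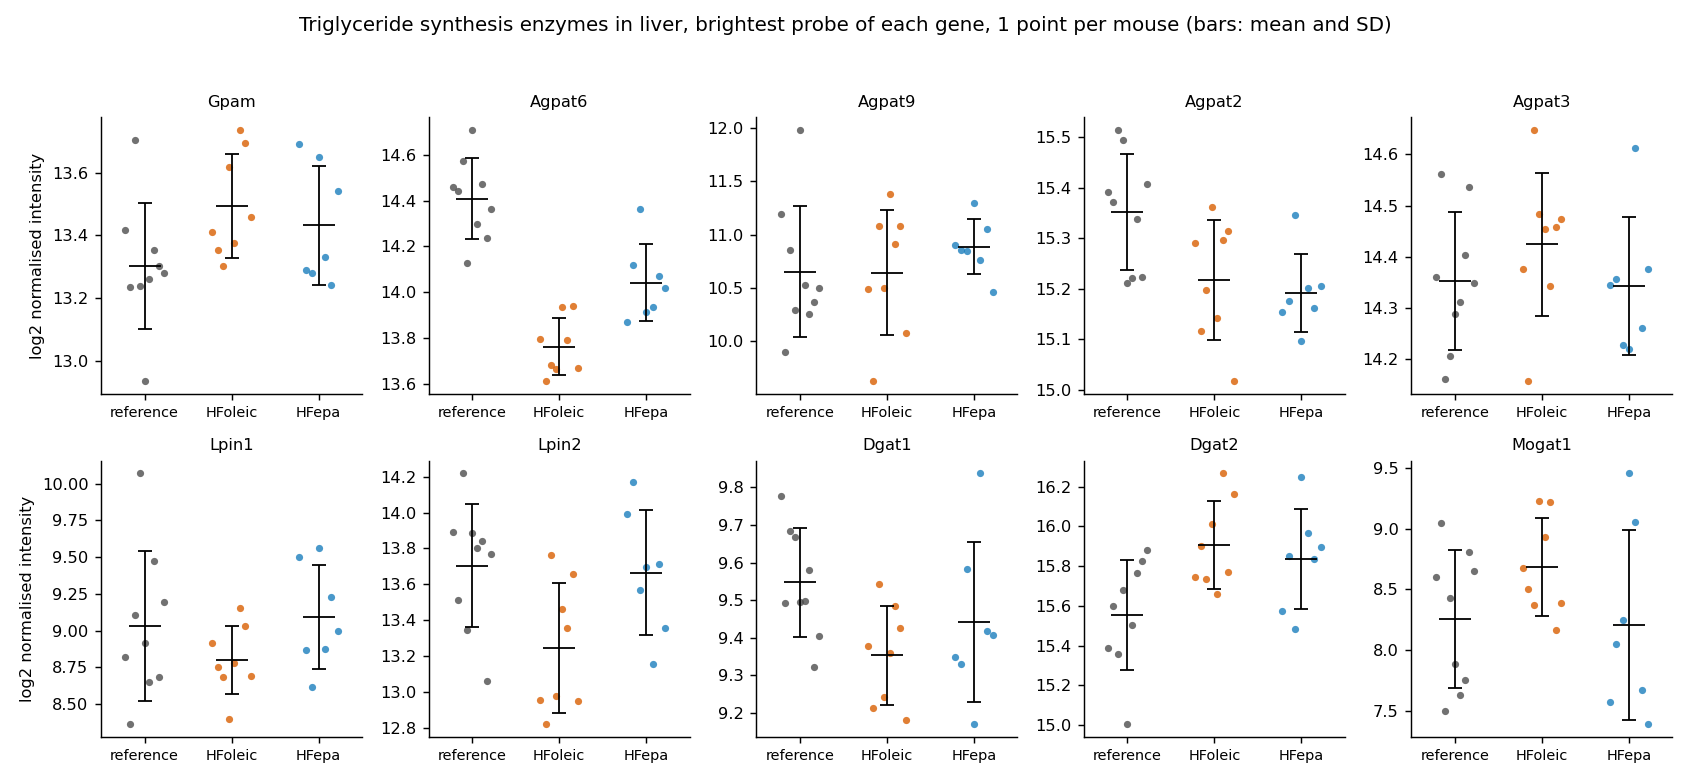
Log2 normalised intensity (y axes, each with its own range) of the brightest probe of the 10 genes in the reference (9 mice), HFoleic (8) and HFepa (7) groups, with 1 point per mouse and bars for mean and SD. Agpat6 is the panel where the reference mice (14.13 to 14.71) lie wholly above the HFoleic mice (13.61 to 13.94), while the HFepa mice (13.87 to 14.36) overlap both. In the other panels the reference and HFoleic mice overlap.

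No probe of the acyltransferases of the next step was called. Agpat2, which makes phosphatidic acid and whose loss causes lipodystrophy, read 15.21, 15.37 and 15.51 in reference and 15.02, 15.24 and 15.36 in HFoleic mice at its brightest probe. The groups overlapped, with 4 of 8 HFoleic mice below the reference range, and the difference of -0.14 ± 0.06 had an adjusted p of 0.161. Its other probe gave -0.16 (adjusted p = 0.223). The Agpat3 probes differed in sign, at 0.07 ± 0.07 for the brightest (adjusted p = 0.612) and -0.13 ± 0.05 for the other (adjusted p = 0.165).

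The lipins convert phosphatidic acid to diacylglycerol, and Lpin2 is the lipin prominent in liver. Its exon-spanning probe read 8.34, 9.19 and 9.87 in reference and 7.87, 8.35 and 8.69 in HFoleic mice. All 8 HFoleic mice lay below the reference mean and 4 of them below every reference mouse. The difference was -0.79 ± 0.20 (95% interval -1.21 to -0.36), or 0.58 times the reference level (adjusted p = 0.0188), and within slides it was -0.81, -1.09 and -0.46.

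The remaining Lpin2 probes did not pass. The brightest read 13.06, 13.80 and 14.22 against 12.82, 13.17 and 13.76, a difference of -0.46 ± 0.16 (adjusted p = 0.0841), and reached an adjusted p of 0.0254 without reference replicate 8 and 0.0475 without HFoleic replicate 3. The probe at chr17:71580723-71580782 gave -0.53 ± 0.19 (adjusted p = 0.101), and the 3 dimmer ones ranged from -0.17 to 0.01. The 6 probes of the gene thus ran from -0.79 to 0.01, and which transcript forms each reads was not examined. Lpin1, the phosphatase that also acts as a transcriptional coactivator, had a brightest probe at 8.36, 8.92 and 10.07 in reference and 8.40, 8.77 and 9.15 in HFoleic mice. Its difference was -0.23 ± 0.18 (adjusted p = 0.503), and its 4 probes ranged from -0.23 to 0.16.

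**Figure D2:**
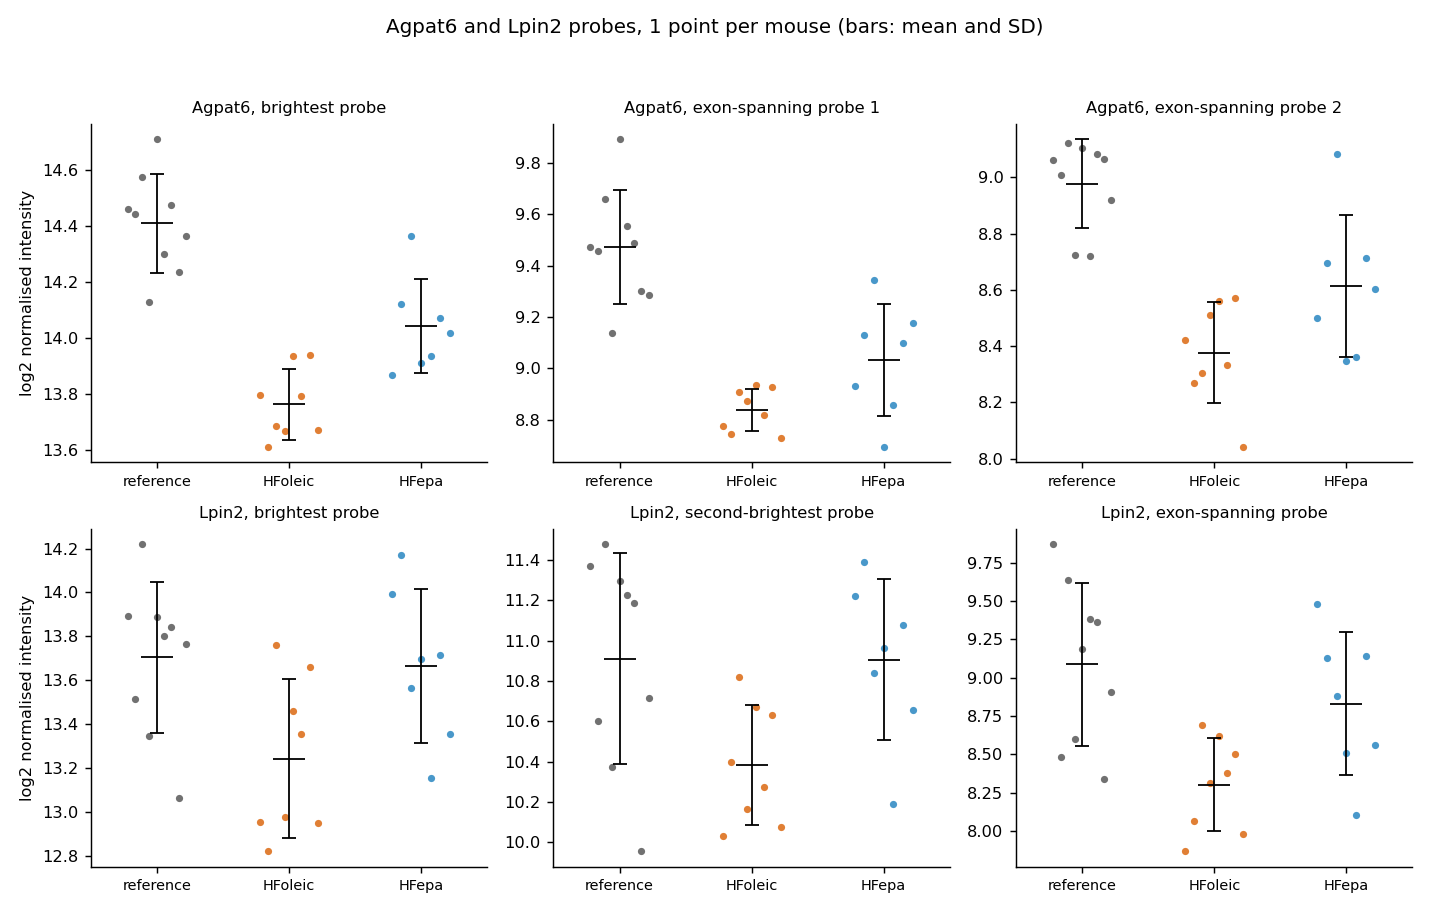
Log2 normalised intensity (y axes, each with its own range) of the 3 Agpat6 probes (upper row) and 3 of the 6 Lpin2 probes (lower row) by group, with 1 point per mouse and bars for mean and SD. The reference and HFoleic mice are apart at each Agpat6 probe, while at the Lpin2 probes they overlap. At both the brightest and the exon-spanning Lpin2 probe 4 of 8 HFoleic mice fall below the reference range, and 0 at the second-brightest.

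For the final step, Dgat2, the diacylglycerol acyltransferase tied most closely to newly made fatty acids, read 15.00, 15.60 and 15.88 in reference and 15.66, 15.83 and 16.27 in HFoleic mice. All 8 HFoleic mice lay above the reference mean and 4 above every reference mouse. The difference of 0.35 ± 0.12 (95% interval 0.11 to 0.59) missed the threshold (adjusted p = 0.0706), and passed it without reference replicate 8 (0.39, adjusted p = 0.0414) or reference replicate 9 (0.39, adjusted p = 0.0464). Dgat1, the other enzyme of that reaction, read 9.32, 9.50 and 9.78 in reference and 9.18, 9.37 and 9.54 in HFoleic mice, a difference of -0.19 ± 0.08 (adjusted p = 0.151). The 2 enzymes therefore pointed in opposite directions with neither called. Mogat1, which makes diacylglycerol from monoacylglycerol by a route that bypasses the lipins, read 7.50, 8.43 and 9.05 against 8.16, 8.59 and 9.23, with overlapping groups and a difference of 0.43 ± 0.27 (adjusted p = 0.385).

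HFepa was set against the same reference mice, so the comparisons share their controls. Agpat6 was the member called, lower in HFepa at 2 of its 3 probes. These 2 calls were 8.33% of the 24 member probes, both lower, beside 0.393% of all tested probes called and 0.203% called lower. The study had listed Agpat6 among the genes most changed in this same comparison on these arrays. These shares and the p-values of Agpat6 below are therefore not independent of its choice. The median over the member probes was 0.01, with 12 on each side of 0, and 5 of the 24 had an unadjusted p under 0.05, beside 4040 of the 30003. By the brightest probe of each gene, 1 of 10 was called (10%), with a median of -0.02. The calls among all probes, 118 in number, depended on single mice, and there were 0 without HFepa replicate 2 or 6, 3 without HFepa replicate 1 or 7, 256 without HFepa replicate 3 and 499 without reference replicate 8.

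The brightest Agpat6 probe read 13.87, 14.02 and 14.36 (lowest, median, highest) in the 7 HFepa mice. All 7 lay below the reference mean and 6 of 7 below the lowest reference mouse. The difference was -0.37 ± 0.08 (95% interval -0.53 to -0.20), or 0.775 times the reference level, with an adjusted p of 0.0385 and a two-sided exact permutation p of 0.00175 for this probe alone. Exon-spanning probe 1 read 8.70, 9.10 and 9.35 in HFepa mice and differed by -0.44 ± 0.09 (adjusted p = 0.0344). Exon-spanning probe 2 read 8.35, 8.60 and 9.08 and differed by -0.36 ± 0.10, which missed the threshold (adjusted p = 0.0849).

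Within slides the brightest probe gave -0.32, -0.40 and -0.35. Leaving out any single mouse kept it between -0.42 and -0.33, but its adjusted p then ran from 0.0165 to 0.0928, and the call was lost on leaving out HFepa replicate 1, 2, 4, 5, 6 or 7 or reference replicate 1, 2, 3, 5, 7 or 9. In a fit of only the 2 groups the adjusted p was 0.117. The methods' t-test gave 0.17.

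No other member was called between HFepa and reference. Among the brightest probes, Dgat2 was 0.28 ± 0.12 (15.48, 15.85 and 16.25 in HFepa mice, adjusted p = 0.309) and Agpat2 was -0.16 ± 0.06 (15.10, 15.18 and 15.35, with 6 of 7 mice below the reference range, adjusted p = 0.211). Gpam was 0.13 ± 0.09, Agpat9 0.23 ± 0.25, Lpin1 0.06 ± 0.19 and Dgat1 -0.10 ± 0.08. Agpat3 was at -0.01 ± 0.07, with HFepa replicate 5 apart at 14.61 from the 14.22 to 14.38 of the other HFepa mice, and Mogat1 at -0.05 ± 0.28. The intervals of these comparisons are unequal, for Mogat1 -0.63 to 0.53 and for Agpat3 -0.16 to 0.14. Lpin2, lower in HFoleic at its exon-spanning probe, read 8.11, 8.88 and 9.48 there in HFepa mice, a difference from reference of -0.26 ± 0.21 (adjusted p = 0.661), and its brightest probe was at -0.04 ± 0.17.

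**Figure D3:**
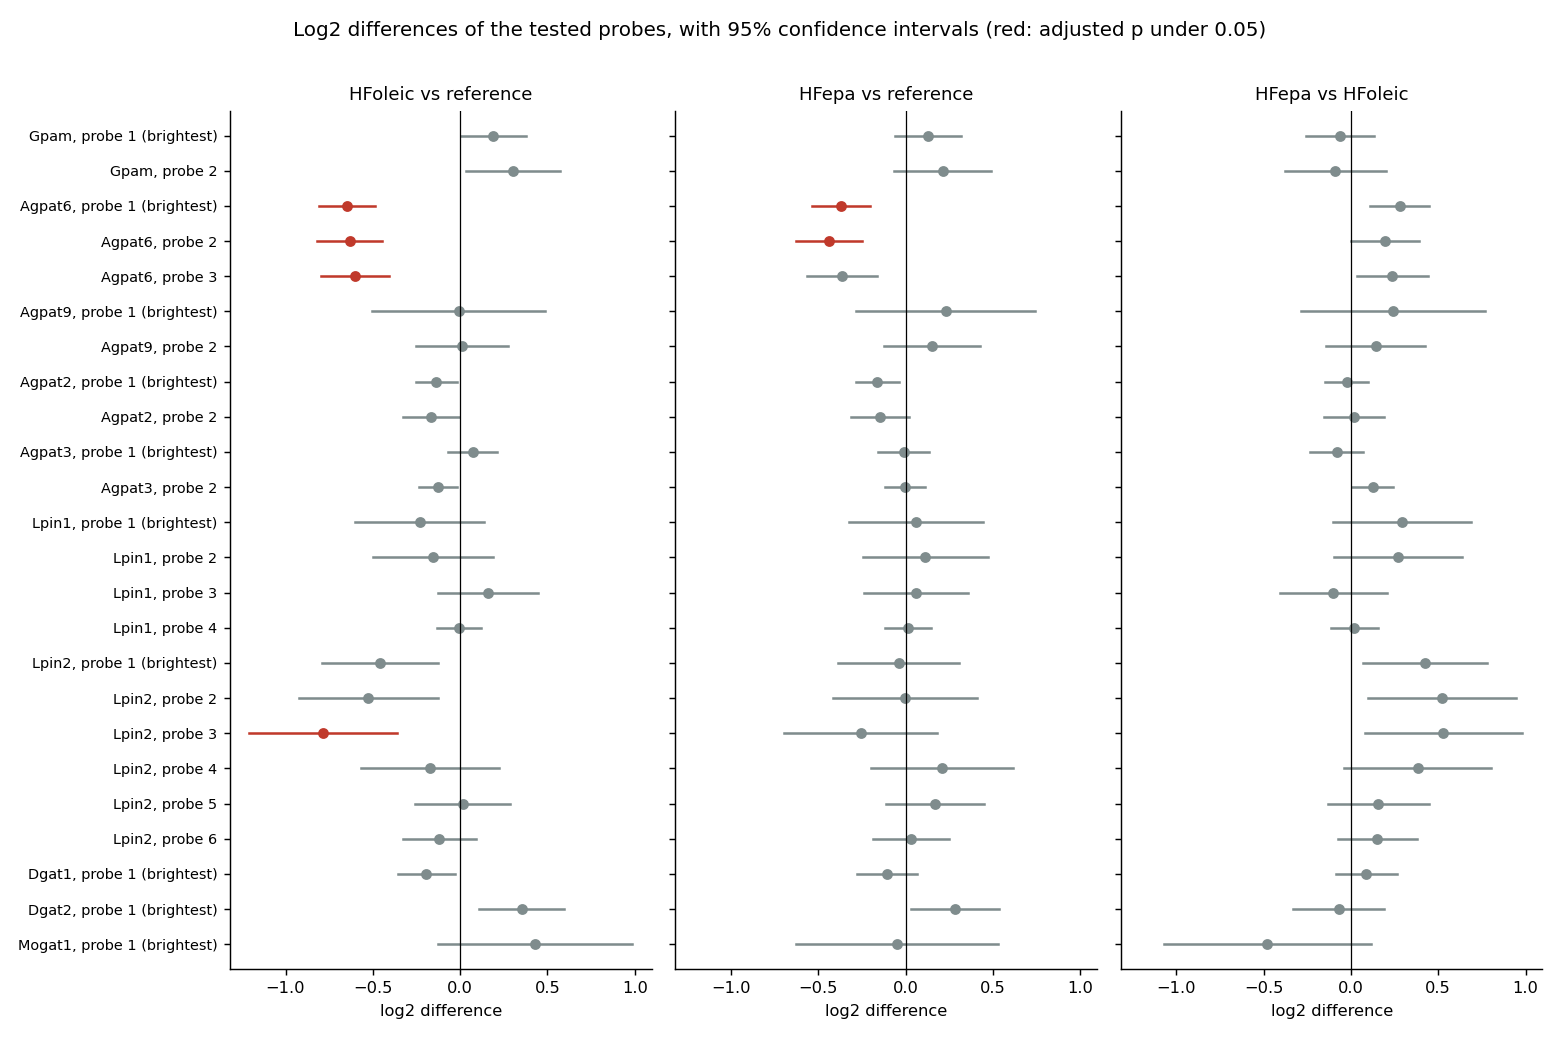
Log2 differences (x axes) of the 24 tested probes of the 10 genes in the 3 comparisons, as points with 95% confidence intervals, in red where the adjusted p was under 0.05. Red points are the 3 Agpat6 probes (-0.65 to -0.60) and 1 Lpin2 probe (-0.79) in HFoleic against reference and 2 Agpat6 probes (-0.44 and -0.37) in HFepa against reference, with none between HFepa and HFoleic.

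HFepa against HFoleic compares the lineages under the same high-fat diet and is the direct test of whether they differed. No member probe was called (0 of 24), as none was among all 30003 tested probes (0% by limma), although 2910 of those and 6 of the member probes had an unadjusted p under 0.05. The smallest adjusted p of a member was 0.25, for the brightest Agpat6 probe.

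At that probe HFepa was higher by 0.28 ± 0.08 (95% interval 0.11 to 0.45), or 1.21 times the HFoleic level. All 7 HFepa mice lay above the HFoleic mean and 4 of 7 above every HFoleic mouse. Taken by itself the probe had a two-sided exact permutation p of 0.0028, and the mean of the 3 probes 0.0131, neither adjusted for the other genes measured. The exon-spanning probes gave 0.19 ± 0.10 and 0.24 ± 0.10 (adjusted p = 0.518 and 0.431), and the slides gave 0.52, 0.17 and 0.17. The order of group means was reference, HFepa, HFoleic at each Agpat6 probe, of which the step between the high-fat groups did not pass the adjusted threshold.

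Lpin2 had the largest positive differences of the members here, at 0.53 ± 0.22 for the exon-spanning probe (adjusted p = 0.425), 0.52 ± 0.21 for the probe at chr17:71580723-71580782 (adjusted p = 0.395) and 0.42 ± 0.17 for the brightest (adjusted p = 0.42). At the brightest, HFepa read 13.16, 13.70 and 14.17, and 6 of 7 mice were above the HFoleic mean. Mogat1 had the largest negative one, at -0.48 ± 0.29 (adjusted p = 0.605), with HFepa mice spread from 7.39 to 9.46 around a median of 8.05. Lpin1 was 0.29 ± 0.19 and Agpat9 0.24 ± 0.26. The intervals for Dgat2 (-0.33 to 0.19), Dgat1 (-0.09 to 0.26), Gpam (-0.26 to 0.13), Agpat2 (-0.15 to 0.10) and Agpat3 (-0.23 to 0.07) at their brightest probes all held 0. The other Agpat3 probe differed in sign from the brightest, at 0.12 (95% interval 0.01 to 0.24, adjusted p = 0.485).

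The wider pathway was read through 54 further genes in 5 lists, of which 52 were tested by their brightest probe. In HFoleic against reference 6 were called, 3 higher and 3 lower (11.5%, against 7.23% of all probes), with a median difference of -0.03. None of the 10 other acyltransferases and phosphatases and none of the 13 tested genes of the phospholipid branch was called, with 1 and 2 of them at an unadjusted p under 0.05.

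The calls lay among regulators and the supply of substrates. The study had reported changes of Srebf1, Mlxipl and Ppargc1a in HFoleic on these arrays. Their calls are therefore not independent of the choice of the lists. Srebf1, a transcription factor that activates fatty acid synthesis, was higher by 1.02 ± 0.22 (adjusted p = 0.00552), at 11.41, 11.96 and 12.96 in reference against 12.30, 13.12 and 13.52 in HFoleic mice. Mlxipl (ChREBP), a carbohydrate-responsive activator of the same programme, was higher by 0.55 ± 0.10 (adjusted p = 0.00163), at 13.48, 13.96 and 14.24 against 14.27, 14.52 and 14.75, without overlap, which 0.317% of tested probes showed in the upward direction. That call came from 1 of its 3 probes, which ran from -0.05 to 0.55. Ppargc1a, a coactivator of oxidative metabolism and gluconeogenesis, was lower, with a difference of -0.54 ± 0.15 (adjusted p = 0.0296) at its brightest probe, and was called at both of its probes. In the study's RT-qPCR of these mice, Srebf1 and Mlxipl were marked as changed in HFoleic against reference, and Ppargc1a was not. Mlxipl was not marked in HFepa against reference.

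Of the genes that supply substrates, Gyk, which encodes glycerol kinase, was lower at all 3 of its probes, with a difference of -0.39 ± 0.10 at the brightest (adjusted p = 0.0204). Acsl4, an acyl-CoA synthetase that prefers arachidonic acid, was lower, with a difference of -0.65 ± 0.18 (adjusted p = 0.0301), and called at 1 of 3 probes. At that probe reference replicate 5 stood apart at 13.55, above the 11.53 to 12.37 of the other reference mice. Slc27a5, an acyl-CoA synthetase of liver that also activates bile acids, was higher by 0.17 ± 0.05 (adjusted p = 0.0489). Its call stayed in only 4 of the 24 fits that left out a mouse, those without HFoleic replicate 3 or 4 or reference replicate 3 or 8. The Acsl4 call was lost without HFoleic replicate 1, 5, 7 or 8 or reference replicate 3 (adjusted p up to 0.0623), and the Ppargc1a call without HFoleic replicate 2, 3, 4 or 8 or reference replicate 1 or 7 (up to 0.0655).

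In HFepa against reference 1 of the 52 was called (1.92%, against 0.393% of all probes), Mlxipl at 0.44 ± 0.10 (adjusted p = 0.0458), and 18 of the 24 fits that left out a mouse lost it. Srebf1 stood at 0.41 ± 0.22 (adjusted p = 0.448) and Gyk at -0.05 ± 0.11. Ppargc1a stood at -0.62 ± 0.16 (adjusted p = 0.07), and passed without reference replicate 8 (adjusted p = 0.0229). Between HFepa and HFoleic none of the 52 was called and 4 had an unadjusted p under 0.05, with Srebf1 at -0.61 ± 0.23 (adjusted p = 0.373) and Gyk at 0.34 ± 0.11 (adjusted p = 0.291).

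**Figure D4:**
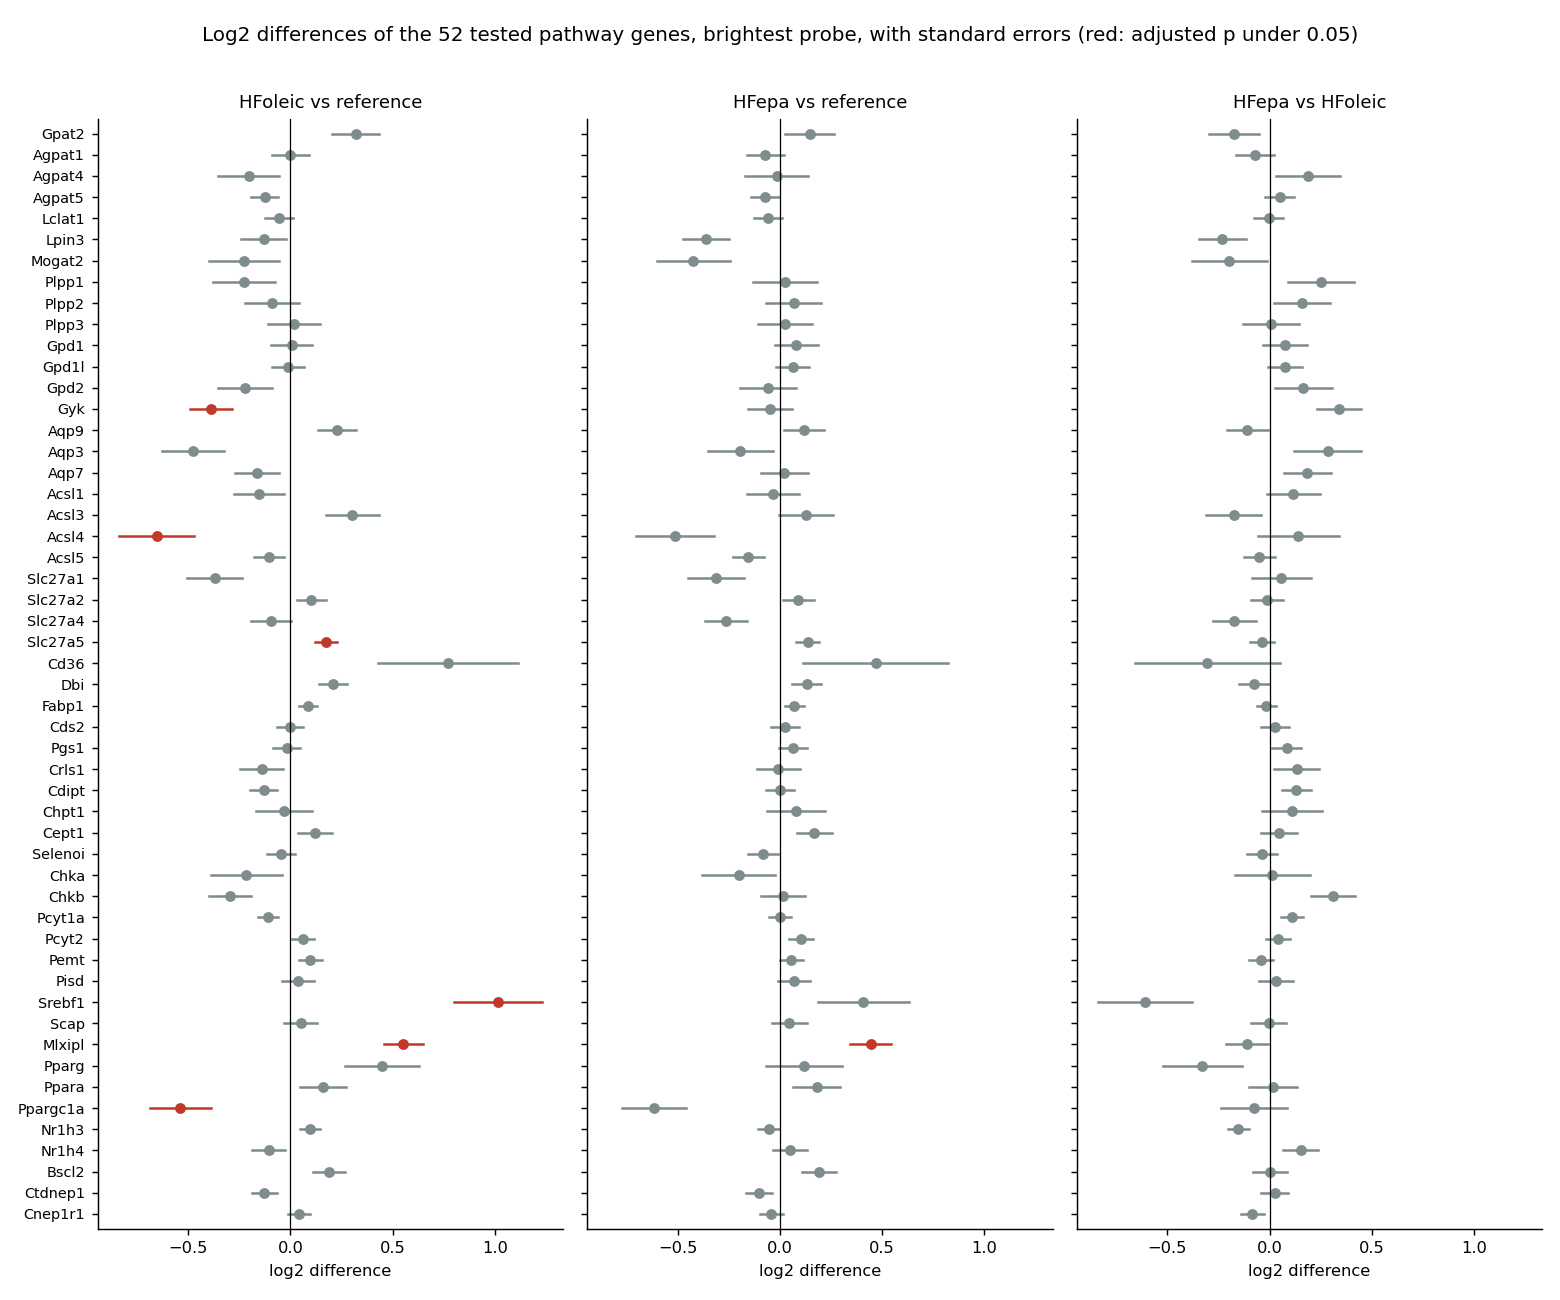
Log2 differences (x axes) of the 52 tested pathway genes, each by its brightest probe, in the 3 comparisons, as points with standard errors, in red where the adjusted p was under 0.05. Srebf1 (1.02), Mlxipl (0.55) and Slc27a5 (0.17) lie to the right and Acsl4 (-0.65), Ppargc1a (-0.54) and Gyk (-0.39) to the left in HFoleic against reference, and Mlxipl (0.44) is the red point in HFepa against reference.

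The genes whose levels followed Agpat6 most closely over the 24 mice were Tmed5, a membrane protein of vesicle transport (Pearson r = 0.92), Sdc1, the heparan sulphate proteoglycan syndecan (0.91), Brap, a BRCA1-binding protein (0.89), Ctcflos (0.89) and Por, the reductase that passes electrons to microsomal cytochrome P450 enzymes (0.88), among 19037 genes compared by their brightest probe. Part of each value is the shared difference between groups. After the group means were taken out, r was 0.81 for Tmed5, 0.68 for Sdc1, 0.67 for Brap, 0.63 for Ctcflos and 0.55 for Por. These values describe the same mice and arrays as those of Agpat6.

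Other features of the samples moved with the groups. A clock score, the mean log2 level of 4 genes that peak with Bmal1 minus that of 7 that peak with the Per genes, had medians of 0.05 in reference (-1.16 to 0.94), -1.11 in HFoleic (-1.92 to 0.08) and -0.62 in HFepa mice (-2.38 to 0.79). With this score as a covariate, Agpat6 was still called lower in HFoleic, at -0.58 (adjusted p = 0.00386), while the exon-spanning Lpin2 probe was at -0.52 (adjusted p = 0.227), Srebf1 at 0.81 (adjusted p = 0.0754) and Agpat6 in HFepa at -0.32 (adjusted p = 0.0836). Of the 6 pathway genes called in HFoleic, Mlxipl was the gene that stayed called with the score (0.52, adjusted p = 0.0175). Over all tested probes, calls against reference fell with the score from 2170 to 580 in HFoleic and from 118 to 4 in HFepa. Reference replicate 8 had the lowest score of its group, -1.16. Without that mouse 7 member probes in place of 4 were called in HFoleic against reference. Over all 30003 tested probes, 3097 in place of 2170 were then called.

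Markers of cell types were read by their brightest probe. Of the hepatocyte markers 1 of 8 was called (12.5%), Tat, lower in HFoleic with a difference of -0.63 (adjusted p = 0.00858). The 8 ran from -0.63 to 0.20, with a median of 0.12. The log2 of the summed intensities of a list is set mostly by its brightest markers. For hepatocytes it was 19.87 to 20.13 in reference, 20.05 to 20.18 in HFoleic and 20.04 to 20.14 in HFepa mice. The dimmer of 2 Ttr probes was also called, higher in HFoleic by 0.53. Sox9 of the bile duct list was lower, with a difference of -0.65 (adjusted p = 0.0279), as 1 of 3 tested (33.3%). These 3 ran from -0.65 to -0.14, with a median of -0.33. The log2 of the summed intensities of that list was 8.12 to 9.95 in reference, 8.05 to 8.49 in HFoleic and 8.17 to 8.59 in HFepa mice. Lrat of stellate cells was higher by 0.56 (adjusted p = 0.0015), as 1 of 6 (16.7%). The 6 ran from -0.47 to 0.56, with a median of 0.05. The log2 of their summed intensities was 14.05 to 15.74, 14.20 to 14.83 and 14.37 to 14.88 in these groups. Beside these shares, 7.23% of all tested probes were called in HFoleic against reference. None of the tested adipocyte (5), macrophage (6), endothelial (5), exocrine pancreas (3) or blood (4) markers was called, with 1 adipocyte marker and none of the others at an unadjusted p under 0.05 in HFoleic against reference. The 5 tested adipocyte markers ran from -0.85 to 0.75 in HFoleic against reference, with a median of -0.01. The log2 of their summed intensities varied widely between mice. It was 9.67 to 12.79 in reference, 10.03 to 13.51 in HFoleic and 9.76 to 12.63 in HFepa mice. The adipocyte marker Adipoq and the duct marker Epcam did not pass the detection filter. The part of these markers in the Agpat6 and Lpin2 differences was not tested.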

How the data were processed

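Liver RNA of 24 mice was labelled with Cy3 and hybridised to Agilent mouse arrays, 1 per mouse. The authors deposited scanner files with the raw median intensity of each spot (Agilent Feature Extraction 10.10.1.1) and a table of log2 values that they had filtered, log2 transformed and quantile normalised, which covers 32176 probes and was used as an alternative. Its filter is not given in the sources used here. Per the file headers, probe positions are on mm9.

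From the median intensities, outlier spots were dropped, spots of a probe averaged on the log2 scale, and a probe kept if 75% or more of the arrays in any group read it well above background. Values were quantile normalised and group means compared with limma 3.58.1 in R 4.3.3 over all 24 arrays. P-values are two-sided, adjusted by Benjamini-Hochberg over the 30003 probes of a comparison, and called under 0.05. The script was tested on simulated data. Quantile normalisation hides a shift shared by all genes, and the number of mice limits the precision.

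Members were read by all their probes, with the brightest described first, pathway genes by their brightest, named where called in any comparison, and the 5 genes most correlated with Agpat6 were named. Members and lists were chosen with earlier results of these data known. Of the 10 members, 8 matched the RefSeq table by symbol and 2 by synonym. Groups and replicate numbers come from the sample titles. Alternatives were the deposited table, other background corrections and scalings, other filters, slide, slide row or replicate number as a block, the methods' t-test, a fit of only the 2 groups compared, a clock score as a covariate and leaving out each mouse. Protein and mm9 genome sequences were not used here.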

Additional observations from a re-analysis of the deposited data

Results flagged for a closer look

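Of 51 sets of values (a gene in a group of mice) examined with Dixon's test at the 95% level, 2 held a mouse set apart from the rest of its group, and chance alone would flag about 1 in 20 such sets. HFepa replicate 5 read 14.61 at the brightest Agpat3 probe, while the other 6 HFepa mice read 14.22 to 14.38. Reference replicate 5 read 13.55 at the brightest Acsl4 probe, while the other 8 reference mice read 11.53 to 12.37. Without HFepa replicate 5 the Agpat3 difference between HFepa and reference was -0.06, and without reference replicate 5 the Acsl4 difference between HFoleic and reference was -0.48 and stayed called.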

How the results depend on the processing

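The difference of Agpat6 between HFoleic and reference stayed called in each of the 12 other fits across all probes and in all 24 that left out a mouse (-0.68 to -0.61), and was -0.84 within slide 1, where it was furthest from the reported -0.65. Between HFepa and reference, leaving out a mouse gave -0.42 to -0.33, and the call was lost with the processed signal (-0.37, adjusted p = 0.083) or the median signal (-0.37, 0.0703) scaled to the 75th percentile, with no filter on dim probes (-0.37, 0.089), with the methods' t-test (-0.37, 0.17), with only the 2 groups compared (-0.37, 0.117) and with the clock score (-0.32, 0.0836). Between HFepa and HFoleic it was 0.28 by exact permutation and 0.24 as the mean of the 3 probes, both under 0.05 for that value alone, 0.52 within slide 1, and 0.22 to 0.31 when leaving out a mouse, never called in a fit across all probes.

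The count of member probes called in HFoleic against reference was 3 to 5 over the other fits and 4 to 7 when leaving out a mouse, the 7 being without reference replicate 8. In HFepa against reference it was 2, 1 with normexp or the median signal scaled to the 75th percentile, 0 with the processed signal, no filter, the methods' t-test, only the 2 groups or the clock score, and 0 to 3 when leaving out a mouse, the 3 being without HFepa replicate 3. The count of pathway genes called in HFoleic, 6 as reported, was 3 with no filter, 2 with the methods' t-test and 2 with the clock score. It was 4 to 8 when leaving out a mouse. These counts need not be of the same genes, since Mlxipl was the gene of the 6 that stayed called with the clock score. The 1 call in HFepa was 0 with normexp, the processed or median signal scaled to the 75th percentile, no filter, slide or slide row as a block, the methods' t-test, only the 2 groups or the clock score, and 0 to 2 when leaving out a mouse. Over all tested probes, the 2170 calls in HFoleic were 580 to 2305 over the other fits, the 580 being with the clock score. They were 1451 of 56605 with no filter, 1746 with the methods' t-test and 1602 to 3097 when leaving out a mouse. The 3097 were without reference replicate 8. The 118 in HFepa became 0 of 56605 with no filter (4845 at an unadjusted p under 0.05), 0 with the methods' t-test, whose threshold was also an adjusted p under 0.05 (3472 unadjusted), 13 with only the 2 groups and 4 with the clock score, and 0 to 499 when leaving out a mouse. The cause of these losses was not tested.

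Small differences that were never called changed sign. Agpat9 in HFoleic was 0.031 with the processed and 0.035 with the median signal scaled to the 75th percentile and 0.11 with the clock score, and -0.11 to 0.16 when leaving out a mouse. In HFepa against reference, leaving out a mouse gave -0.055 to 0.016 for Agpat3, -0.023 to 0.19 for Lpin1, -0.12 to 0.046 for Lpin2 and -0.26 to 0.088 for Mogat1, and the clock score gave -0.026 for Lpin1 and 0.081 for Lpin2. Slc27a5 between HFepa and HFoleic was 0.0036 with the median signal scaled to the 75th percentile. No other result in these comparisons changed sign in a fit across all probes. Of the single pathway calls in HFoleic, that of Gyk was lost with either signal scaled to the 75th percentile (adjusted p = 0.0679 and 0.0519), the methods' t-test (0.0517) and the clock score (0.135). Those of Acsl4 and Ppargc1a were lost with no filter (0.0589 and 0.0588), the methods' t-test (0.109 and 0.0917), only the 2 groups (0.0701 and 0.0599) and the clock score (0.197 and 0.094), and that of Slc27a5 in 10 of the 12 other fits (up to 0.517).

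The replicate numbers are only names here. Mice of the same number did not deviate together, with correlations of deviations from group means of -0.30 to 0.35, over 0.1 in 1 of 8, 2 of 7 and 0 of 7 pairs. With the replicate number as a block, Agpat6 was -0.65 in HFoleic (adjusted p = 0.00109) and -0.39 in HFepa (0.046), Dgat2 in HFoleic was 0.39 and called (0.0193), Agpat3 in HFepa was 0.0057 and Mogat1 in HFepa 0.022, and 1747 probes were called in HFoleic and 104 in HFepa. Probes near background, such as the 2 untested Mogat1 probes and the dimmest of Lpin1 and Lpin2, limit what can be said of the forms they read.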
